A study of Mus musculus with 16 samples.

Results

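The genes of renal ammonia handling described here are Rhbg, Rhcg, Slc38a3, Glud1 and Glul, 5 in all. They were taken by symbol from a table of read counts for 28971 genes in mouse kidney, and all 5 passed the filter on low counts that left 15615 genes to test. Total RNA from whole kidneys had been sequenced as 150 bp read pairs. The mutant mice were homozygous for a floxed Hes1 allele (Hes1 f/f) and also had the transgenes Pax8-rtTA and TRE-Cre; they are called Hes1 cKO (conditional knockout), and wild type littermates were the controls. Every mouse, control or mutant, drank doxycycline at 1 mg/mL with 5% sucrose for 1 week from 3 weeks of age. Pax8-rtTA restricts Cre to cells with Pax8 promoter activity, in the kidney mainly tubule epithelium, while the RNA came from the entire organ. The comparison asks which genes differ in expression when Hes1, a transcriptional repressor induced by Notch, is deleted in the tubule.

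The kidney makes ammonia chiefly in the proximal tubule, where glutamine is taken up and deaminated, leaving ammonium for the urine and new bicarbonate for the blood. Ammonium is then concentrated in the medulla by reabsorption in the thick ascending limb and is secreted by the collecting duct. There it crosses epithelial membranes largely through glycoproteins of the Rh family. Slc38a3 encodes the glutamine transporter SNAT3 of the proximal basolateral membrane, Glud1 the mitochondrial glutamate dehydrogenase that releases ammonia from glutamate, and Glul the glutamine synthetase that consumes ammonia. Rhbg and Rhcg encode ammonia channels of the distal nephron and collecting duct; Rhbg lies in the basolateral membrane, whereas Rhcg is found in the apical membrane and, in part, the basolateral one.

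Libraries of 3 Hes1 cKO and 4 control kidneys entered the comparison, with 16973931 to 20420422 counts each. The sample titles name 7 Hes1 cKO and 9 control kidneys, a split that the series text gives the other way round. Both sexes are recorded for the titled kidneys, 4 female and 3 male Hes1 cKO and 3 female and 6 male control. The column names give a genotype, a code and a number, but no title or sex. The codes and the numbers each run on across both groups. Libraries are numbered here in column order within a group, as Hes1 cKO 1 to 3 and control 1 to 4, and were not matched to titled kidneys. The p-values measure the spread between these libraries. Hes1 was at 17.2 to 19.8 CPM (counts scaled to library size) in Hes1 cKO and at 42.8 to 67.6 CPM in control, without overlap. Xist was at 333 to 367 CPM in Hes1 cKO 3, control 3 and control 4, and at 0.371 CPM or less in the others, so values are also given within these classes. The summed level of 5 adrenal cortex markers, a tissue beside the kidney, was 49.2, 2.62 and 1056 CPM in Hes1 cKO 1 to 3. In control 1 to 4 it was 788, 203, 3.13 and 4.20 CPM. It was thus higher in Hes1 cKO among the high-Xist libraries and higher in control among the low-Xist ones. Its part in the differences within the Xist classes was not tested.

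None of the 5 ammonia genes was called different between Hes1 cKO and control, and the libraries of the groups overlapped for each of them. A gene was called at a Benjamini-Hochberg adjusted p under 0.05 in edgeR's quasi-likelihood test. By this rule 53 of the 15615 tested genes (0.339%) were called, 50 higher (0.32%) and 3 lower (0.0192%) in Hes1 cKO, so no call among 5 genes is near the background. At an unadjusted p under 0.05 the count was also 0 of 5, against 5.95% of all genes, and groups without overlap were found for 7.01% of all genes. DESeq2 and limma-voom called 0 of the 5 as well. Glul, Slc38a3 and Glud1 had higher means in Hes1 cKO, and Rhbg and Rhcg had lower ones. The median log2 fold change was 0.03 over the 5 genes and -0.0064 over all tested genes.

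**Figure D1:**
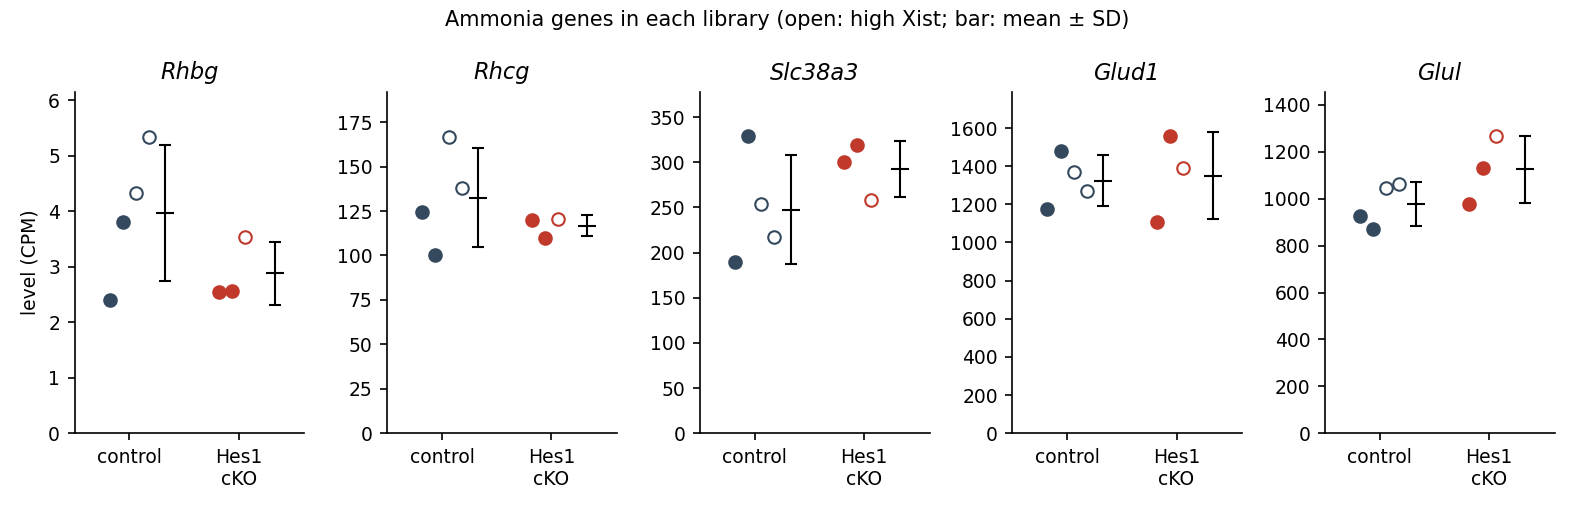
CPM of each ammonia gene (vertical axes, each starting at 0) in 3 Hes1 cKO and 4 control libraries. Each point is 1 library, open points are libraries with high Xist, and bars give the mean ± SD of a group. The points of the groups overlap in every panel.

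The genes lie on 5 chromosomes of GRCm38 (GENCODE annotation, release M21), and all are protein coding. Rhbg is at chr3:88242874-88254709 on the minus strand, Rhcg at chr7:79593363-79617657 on the minus strand, and Slc38a3 at chr9:107650634-107669530 on the minus strand. Glud1 is at chr14:34310727-34345265 and Glul at chr1:153899944-153909723, both on the plus strand.

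Hes1 protein is known to bind the N box and related sequences near its targets. The 250 bases before the annotated start were therefore read for 3 of the 5 genes that had an entry in the RefSeq promoter table (GRCm38.p6): Rhcg at chr7:79617658-79617907 on the minus strand, Glud1 at chr14:34310477-34310726 and Glul at chr1:153899679-153899928. Rhbg and Slc38a3 had no entry. The sequences are shown 5′ to 3′ on the gene's strand, with matches to the N box CACNAG or the related form CACGNG, on either strand, in capitals. The general E box form CANNTG was not searched for.

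Rhcg: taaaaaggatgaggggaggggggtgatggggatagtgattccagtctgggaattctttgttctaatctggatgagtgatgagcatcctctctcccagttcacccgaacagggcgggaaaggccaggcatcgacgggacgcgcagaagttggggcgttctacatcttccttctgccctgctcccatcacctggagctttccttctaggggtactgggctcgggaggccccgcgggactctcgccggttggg
Glud1: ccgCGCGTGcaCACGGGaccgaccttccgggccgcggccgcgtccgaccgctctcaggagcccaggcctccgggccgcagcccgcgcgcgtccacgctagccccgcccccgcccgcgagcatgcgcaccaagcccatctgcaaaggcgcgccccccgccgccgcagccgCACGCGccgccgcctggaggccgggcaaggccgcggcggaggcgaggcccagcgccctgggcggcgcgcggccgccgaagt
Glul: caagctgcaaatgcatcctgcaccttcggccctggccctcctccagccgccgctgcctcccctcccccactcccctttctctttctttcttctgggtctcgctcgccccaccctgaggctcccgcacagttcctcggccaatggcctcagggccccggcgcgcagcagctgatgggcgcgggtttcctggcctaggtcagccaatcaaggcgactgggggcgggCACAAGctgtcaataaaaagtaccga

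The Rhcg window held no match to CACNAG or CACGNG. The Glud1 window held 3 matches to CACGNG, starting 247, 239 and 81 bases before the start, in a window of 82% G and C. The Glul window held 1 match to CACNAG, starting 26 bases before the start. None of the 3 held the forkhead core GTAAACA on either strand. Such matches are common: among 32851 promoters, the same 250-base window held CACNAG in 36.7%, CACGNG in 23.5% and GTAAACA in 3.17%. A site CACGAG would count for both of the first motifs. The matches describe letters only, and no binding was measured here.

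Per kilobase of exon, the enzymes stood far above the Rh channels. In control, Glud1 was at 315 ± 31.5 CPM per kb and Glul at 294 ± 28.2 CPM per kb (SD, n = 4, as for the other control levels per kb). Rhcg followed at 59.3 ± 12.5, Slc38a3 at 46.9 ± 11.4 and Rhbg at 2.05 ± 0.632 CPM per kb. Neighbours in this order were not all apart: Glud1 exceeded Glul in 4 of 7 libraries and Rhcg exceeded Slc38a3 in 4 of 7, with overlapping control ranges. Exon length took in every exon base of any annotated transcript, 5277 bases over 14 transcripts for Slc38a3 and 2232 over 3 for Rhcg. In CPM without the length, control means were 247 for Slc38a3 and 132 for Rhcg, so their order depended on this length. Glul exceeded Rhcg in 7 of 7 libraries, by 4.95-fold between control means, and Slc38a3 exceeded Rhbg in 7 of 7, by 22.8-fold. In Hes1 cKO the levels were 321 ± 54.1 for Glud1, 339 ± 43.5 for Glul, 52.3 ± 2.63 for Rhcg, 55.5 ± 5.89 for Slc38a3 and 1.49 ± 0.290 CPM per kb for Rhbg (SD, n = 3). The Hes1 cKO means put Glul above Glud1 and Slc38a3 above Rhcg, a change of order between neighbours that did not differ beyond their spread.

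**Figure D2:**
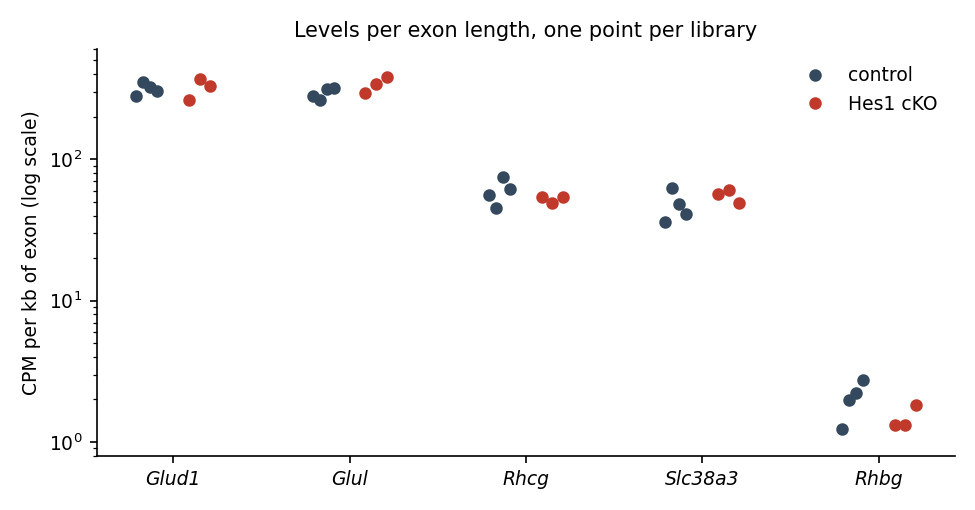
Level of each ammonia gene in CPM per kb of exon on a log axis, by library and group. Glud1 and Glul lie highest, Rhcg and Slc38a3 in between and Rhbg lowest in every library.

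The Rhbg level is uncertain because of its annotation. Of its 1937 exon bases, 1190 (61.4%), in 9 of 10 exons, are also exon of Gm38392, a longer protein-coding gene on the same strand at chr3:88243380-88287210. Gm38392 itself had 7 counts over the 7 libraries. The sources used here do not say how reads that fall in both genes were counted. If only the 747 unshared bases could receive counts, the control level of Rhbg would be 5.32 ± 1.64 CPM per kb (SD, n = 4), which still left it below the other 4 genes. Glul shared 3.49% of its exon bases with Teddm2, on the opposite strand, and the microRNA gene Mir8114, and the other 3 genes shared none.

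**Figure D3:**
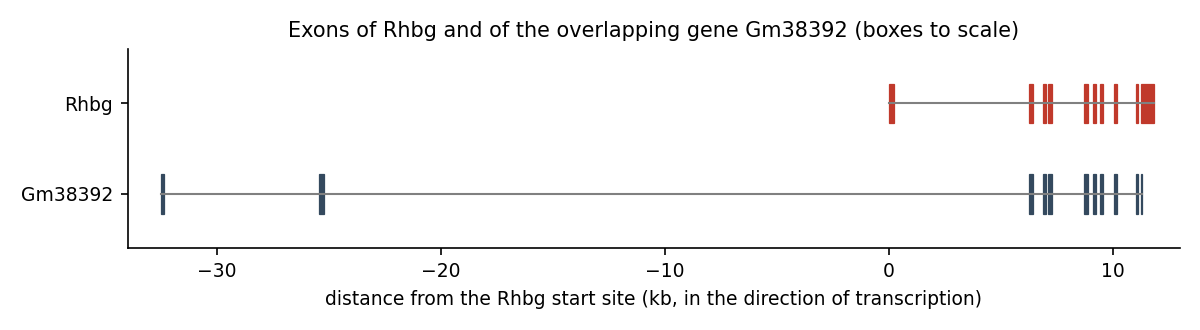
Exons (boxes, to scale) of Rhbg and of Gm38392 by distance from the Rhbg start site in kb, in the direction of transcription. The exons of Gm38392 that lie under exons of Rhbg are the shared ones. Of the Rhbg exon bases, 61.4% are shared, spread over 9 of its 10 exons.

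Both Rh channels of the collecting duct had lower means in Hes1 cKO, and neither difference passed the test. Rhbg, the basolateral channel, was at 2.54, 2.57 and 3.53 CPM in Hes1 cKO 1 to 3 and at 2.41, 3.81, 4.34 and 5.35 CPM in control 1 to 4. The lowest of all 7 values was control 1, and the other 3 controls lay above every Hes1 cKO library. Group means were 2.88 ± 0.562 (SD, n = 3) and 3.98 ± 1.22 CPM (SD, n = 4). The log2 fold change came to -0.47 (SE 0.28, 95% interval -1.10 to 0.17, edgeR adjusted p = 0.937). These levels came from 42 to 98 reads per library, and the SE was the largest of the 5 genes. Without control 1 the log2 fold change was -0.65 (unadjusted p = 0.021, adjusted p = 0.684), and without control 4 it was -0.29. In bulk tissue, fewer cells of a type and less RNA per cell cannot be told apart.

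Rhcg, the apical channel, was at 119.9, 109.9 and 120.3 CPM in Hes1 cKO 1 to 3. In control 1 to 4 it was at 124, 100.35, 167 and 138 CPM. The Hes1 cKO libraries lay close together inside the control range, between control 2, the lowest, and control 1. Means were 117 ± 5.88 (SD, n = 3) and 132 ± 27.8 CPM (SD, n = 4), and the log2 fold change was -0.18 (SE 0.15, 95% interval -0.52 to 0.16, edgeR adjusted p = 0.959). The size of this difference rested on control 3: without it the value was -0.05. Without control 2 it was -0.29 (edgeR unadjusted p = 0.0379, adjusted p = 0.796).

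Within the Xist classes, the Rhcg difference was 0.04 in log2(CPM + 1) among the low-Xist libraries (2 against 2) and -0.33 among the high-Xist ones (1 against 2). For Rhbg these values were -0.19 and -0.36. For both channels the difference was larger in size where Xist was high, and whether the classes differ was not tested. The difference between the channels within a library was also taken. The log2 ratio of Rhcg to Rhbg was 5.09, 4.96 and 4.74 in Hes1 cKO and 5.20, 4.40, 4.98 and 4.45 in control. Its means were 4.93 ± 0.177 and 4.76 ± 0.395, with overlap (difference 0.17, exact two-sided permutation p = 0.514, and 0.514 after adjustment over 2 ratios; the smallest p that 35 splits allow is 0.0286).

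Rhcg is made by intercalated as well as principal cells, and the markers of these cells did not move alike. Of 15 intercalated cell markers, 15 had a positive log2 fold change and 9 were called higher, with a median of 1.02. Among those called were Foxi1, the forkhead factor of intercalated cells, at 119.8 ± 12.9 against 32.7 ± 5.53 CPM, Slc4a9, a bicarbonate carrier, at 340.2 ± 53.2 against 98.9 ± 18.9 CPM, and Slc26a4 (pendrin) at 204 ± 17.6 against 68.4 ± 19.6 CPM (SD, n = 3 and 4). The markers with the smallest differences were Atp6v0a4, a proton pump subunit (log2 fold change 0.17, adjusted p = 0.934), Tmem213 (0.25, adjusted p = 0.959) and Oxgr1 (0.29, adjusted p = 0.911). Slc4a1, the basolateral anion exchanger of acid-secreting cells, came next (0.41, adjusted p = 0.718). Of 8 principal cell markers tested, 7 had a negative value and 1 was called lower, Hsd11b2 at 106 ± 11.9 against 230.0 ± 37.6 CPM, with a median of -0.43. Both marker sets were already known to differ in these libraries, so their counts describe the tissue and add no independent support.

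Rhcg was lower relative to the intercalated markers in Hes1 cKO than in control. The log2 level of Rhcg minus the mean log2 level of the intercalated markers was 0.28, 0.08 and 0.29 in Hes1 cKO 1 to 3 and 1.66, 1.02, 1.65 and 1.44 in control 1 to 4. Every Hes1 cKO value was below every control value, and the means were 0.22 ± 0.119 (SD, n = 3) and 1.44 ± 0.298 (SD, n = 4), a difference of -1.22. The difference was -1.16 among low-Xist and -1.25 among high-Xist libraries. Most of it is the rise of the markers, whose mean went from 5.59 ± 0.192 to 6.66 ± 0.0458 on the log2(CPM + 1) scale, so no p is given. Against the principal cell markers the shift went the other way. Their mean went from 6.32 ± 0.239 (SD, n = 4) in control to 5.87 ± 0.238 (SD, n = 3) in Hes1 cKO. This fall was larger than that of Rhcg, so the direction of the relative shift depended on the marker set. The 15 intercalated markers also rose unequally, with log2 fold changes from 0.17 to 2.44. The size of the shift against them therefore depended on which were averaged. How Rhcg RNA is divided between the cell types was not measured in these bulk libraries.

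**Figure D4:**
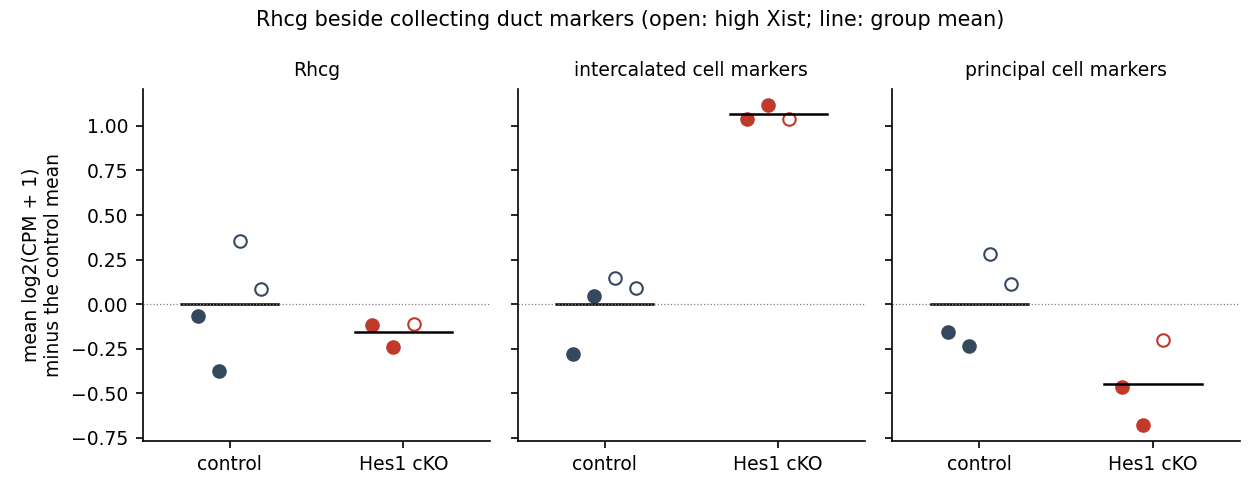
Log2(CPM + 1) of Rhcg beside the mean of 15 intercalated and of 8 principal cell markers, each minus its control mean. Points are libraries (open where Xist was high) and lines are group means. The intercalated mean of every Hes1 cKO library lies above all controls, whereas Rhcg overlaps.

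The ammonia-producing side showed no called difference either. Slc38a3, which brings glutamine into proximal cells, was at 299.7, 319.55 and 258.6 CPM in Hes1 cKO 1 to 3 and at 189.8, 328.5, 254.2 and 217.1 CPM in control 1 to 4. The highest value of all was control 2, and the other 3 controls were below every Hes1 cKO library. Means were 293 ± 31.1 (SD, n = 3) and 247 ± 60.1 CPM (SD, n = 4), and the log2 difference fitted was 0.24 (SE 0.17, 95% interval -0.15 to 0.63, edgeR adjusted p = 0.942). Without control 2 this became 0.41 (unadjusted p = 0.0135, adjusted p = 0.627). Within the Xist classes the difference was 0.31 and 0.14. The summed level of 6 markers of the straight proximal tubule varied from 843 to 1647 CPM in Hes1 cKO and from 771 to 2557 CPM in control. For 6 markers of the convoluted part it was 2035 to 2682 CPM in Hes1 cKO and 2775 to 3045 CPM in control, without overlap. For 7 markers of all segments it was 8682 to 9267 and 9073 to 11562 CPM, with overlap. The part of these sums in the Slc38a3 values was not tested.

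Glud1 was the member with the closest group means. It stood at 1105, 1556 and 1388 CPM in Hes1 cKO 1 to 3 and at 1174, 1482, 1372 and 1271 CPM in control 1 to 4. Both the lowest and the highest library were Hes1 cKO, so the control range lay inside the Hes1 cKO range. Means were 1350 ± 228 (SD, n = 3) and 1325 ± 133 CPM (SD, n = 4), and the log2 fold change was 0.03 (SE 0.13, 95% interval -0.27 to 0.33, edgeR adjusted p = 0.996). Its sign depended on single libraries: the value was -0.09 without Hes1 cKO 2 and 0.15 without Hes1 cKO 1.

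Glul had the smallest unadjusted p of the 5 genes. Levels were 977, 1133 and 1266 CPM in Hes1 cKO 1 to 3 and 925, 869.6, 1044 and 1064 CPM in control 1 to 4. Hes1 cKO 2 and 3 were above every control, and Hes1 cKO 1 fell between control 1 and control 3. Means were 1125 ± 145 (SD, n = 3) and 976 ± 93.8 CPM (SD, n = 4), and the fitted log2 fold change was 0.21 (SE 0.12, 95% interval -0.06 to 0.47, unadjusted p = 0.112, edgeR adjusted p = 0.934). Without Hes1 cKO 3 the value was 0.11, and without Hes1 cKO 1 it was 0.30 (edgeR unadjusted p = 0.0369, adjusted p = 0.927).

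The Glul means were higher in Hes1 cKO in both Xist classes. Among the low-Xist libraries the Glul means were 1055 against 897 CPM, and among the high-Xist libraries 1266 against 1054 CPM. In each class every Hes1 cKO library was above every control, with differences of 0.23 and 0.26 in log2(CPM + 1), as was so for 6.9% of all tested genes. The groups did not overlap for 1 of the 5 ammonia genes, Glul, in the low class (2 libraries against 2; 35.2% of all genes) and for 5 of 5 in the high class (1 against 2; 67.7%). With log2 Xist as a covariate in edgeR the log2 fold change was 0.25 (SE 0.09, unadjusted p = 0.0251, adjusted p = 0.61), so Glul was still not called. The same fit gave 0.03 for Glud1, -0.35 for Rhbg, -0.12 for Rhcg and 0.21 for Slc38a3. The log2 ratio of Glul to Glud1, consumption over release of ammonia at the RNA level, was -0.18, -0.46 and -0.13 in Hes1 cKO and -0.34, -0.77, -0.39 and -0.26 in control. The groups overlapped, with means of -0.26 ± 0.175 and -0.44 ± 0.226 (difference 0.18, exact two-sided permutation p = 0.314, and 0.514 after adjustment over 2 ratios).

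The wider pathway was described by 79 other genes, of which 71 were tested. Of these, 28 had a positive and 43 a negative log2 fold change, 2 were called higher and 0 lower by edgeR (0.339% of all tested genes were called), and the median was -0.07. At an unadjusted p under 0.05 there were 6 higher and 7 lower, or 18.3% of the list against 5.95% of all tested genes. The groups did not overlap for 9 of the 71, against 7.01% of all tested genes. The Rh family members Rhag and Rhd, which belong to red blood cells, had 3 and 10 counts in all and were not tested.

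The 2 called genes belong to the collecting duct list, where 6 of the 9 genes tested besides Rhbg and Rhcg were higher, with a median of 0.41. Car12, a membrane carbonic anhydrase, rose from 399 ± 31.7 (SD, n = 4) to 721 ± 13.03 CPM (SD, n = 3), or by 0.85 on the log2 scale (SE 0.09, edgeR adjusted p = 0.00357). Atp12a, a potassium-transporting proton pump of the nongastric type, rose from 0.909 ± 0.436 to 5.96 ± 1.66 CPM (2.71, SE 0.37, adjusted p = 0.0167). The Atp12a call was lost without Hes1 cKO 1 (adjusted p = 0.0893), without Hes1 cKO 2 (0.108) and without control 4 (0.0677). DESeq2 called Slc26a7, an anion exchanger, in addition (edgeR log2 fold change 0.78, adjusted p = 0.184). At the other end of the list was Car4, a carbonic anhydrase anchored on the membrane, at -0.61 (adjusted p = 0.798), and Slc12a2, the basolateral sodium-potassium-chloride carrier that can take up ammonium, had 0.09 (adjusted p = 0.974). The intercalated marker sum, at 2098 to 2270.3 CPM in Hes1 cKO and 1047 to 1224 CPM in control, moved with the called genes, and its part in them was not tested. Slc4a1 belongs both to the collecting duct list and to these markers.

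In the other pathway lists no gene was called. In glutamine uptake and glutamate production, 8 of 15 tested genes were higher with a median of 0.0083, from Slc7a8, a neutral amino acid exchanger subunit, at -0.40 to Slc1a5, a glutamine carrier, at 0.54 (adjusted p = 0.512 for each). In glutamate and glutamine metabolism 6 of 15 were higher, with Asns, asparagine synthetase, at 0.30 and Gclc, which starts glutathione synthesis, at -0.27. Among genes downstream of ammonia release, 2 of 10 were higher and 8 lower, with a median of -0.17. The 2 were Pck1, the enzyme that commits carbon to glucose, at 8673 ± 1512 against 7074 ± 1052 CPM (0.29, adjusted p = 0.927), and Pck2. The lowest of this list was Fbp1, also of glucose synthesis, at -0.36 (adjusted p = 0.719), with the proton exchanger Slc9a3 at -0.13 and the bicarbonate cotransporter Slc4a4 at -0.28. Slc4a4, and Slc7a8, Slc7a7 and Slc6a19 of the glutamine uptake list, are also among the convoluted proximal tubule markers. The sum of those markers was lower in every Hes1 cKO library than in any control, and its part in these lists was not tested.

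In the thick ascending limb, 2 of 7 genes were higher and 5 lower, with a median of -0.13. Slc12a1, the apical carrier through which ammonium is reabsorbed, was at -0.13 (adjusted p = 0.962), the potassium channel Kcnj1 at -0.30 and the anion exchanger Slc4a2 at 0.05. The 6 markers of this segment, which include Slc12a1 and Kcnj1, summed to 4895 to 5467 CPM in Hes1 cKO and 4785 to 6083 CPM in control. Their mean log2(CPM + 1) was 7.843 to 7.905 in Hes1 cKO and 7.920 to 8.242 in control, without overlap. Their part in the list was not tested. Of 5 genes of sulfatide metabolism, lipids that help hold ammonium in the medulla, 1 was higher and 4 lower, from Fa2h at -0.39 to Cers2 at 0.01. Of 11 other enzymes that release ammonia, 4 were higher and 7 lower, from Gcsh of the glycine cleavage system at -0.36 to adenosine deaminase, Ada, at 0.75 (adjusted p = 0.833).

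**Figure D5:**
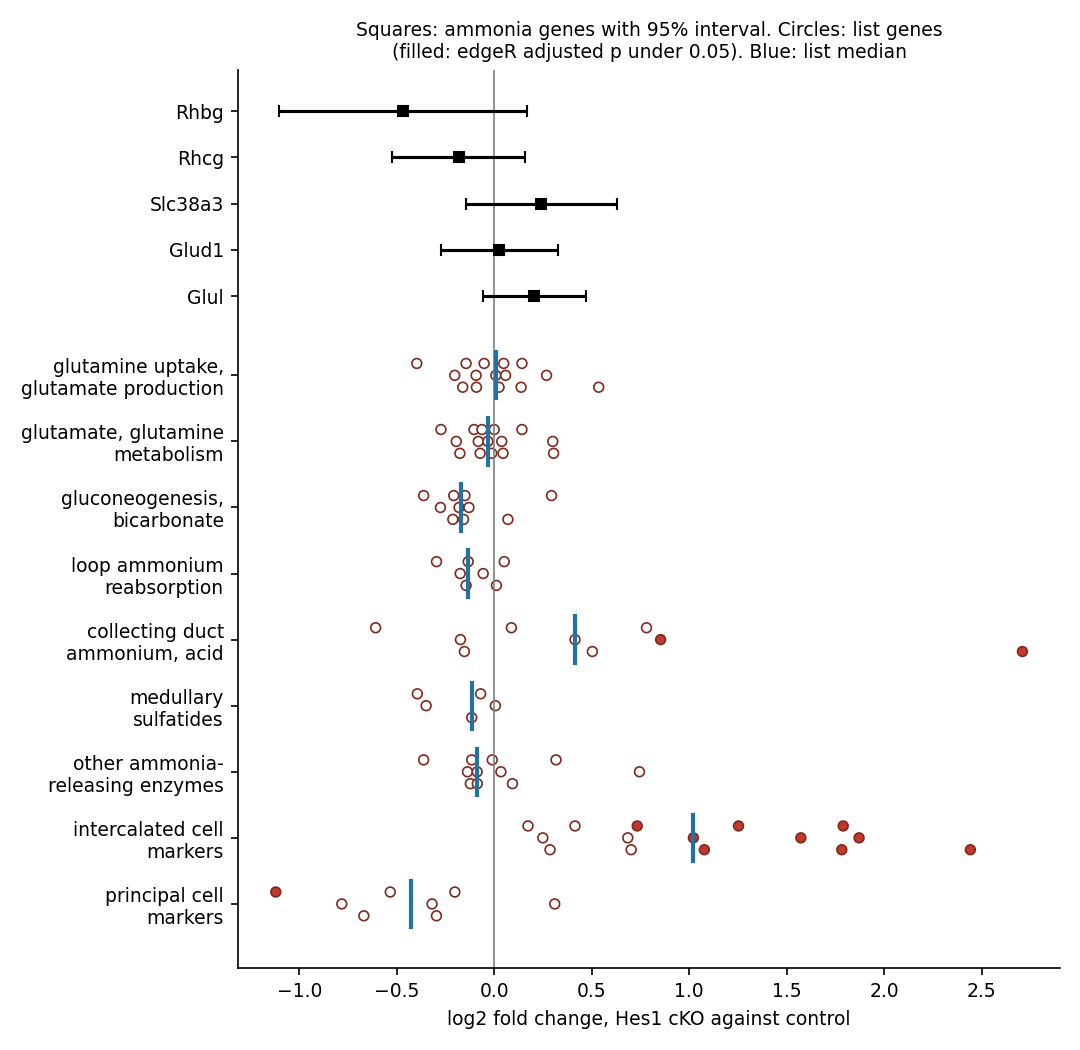
Log2 fold change (Hes1 cKO against control, horizontal axis) of the 5 ammonia genes as squares with 95% intervals, and of the other pathway and marker genes by list as circles, filled where called, with the list median in blue. Among the pathway genes the called ones are Atp12a at 2.71 and Car12 at 0.85, and the intervals of all 5 ammonia genes include 0.

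Profiles across the 7 libraries were compared for the 2 ammonia genes with the smallest p, Glul and Rhbg, as the root mean square difference between centred log2(CPM + 1) values, over 11212 genes with a mean of at least 5 CPM. The profile of Glul, whose own root mean square deviation was 0.169, was nearest to Zfp839 (0.0293), Gpatch1 (0.0530) and Paox (0.0542). That of Rhbg, with a deviation of 0.316, was nearest to Ddx26b (0.101), Zfp354c (0.103) and Zbtb44 (0.104). None of these 6 genes was called, and 7 libraries allow many genes to resemble one another: 2007 genes were closer to Glul than a flat profile was, and 3806 to Rhbg.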

How the data were processed

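Whole-kidney RNA was read as 150 bp pairs, and the authors deposited whole-number counts per gene with no normalization. FastQC, STAR and DESeq2 and the builds mm10 and GRCm38 are named per the submitters' processing notes, with no roles; the counter, its strand setting and its annotation are, in the sources used here, not given. Groups came from column names of the first table (3 Hes1 cKO, 4 control); the 9 sample columns of the second table, named by codes that show no genotype, were not used. Genes were kept by filterByExpr (minimum count 10), scaled by TMM and tested with edgeR 4.0.16 (R 4.3.3) without covariates. Library depth, 16973931 to 20420422 counts, makes counting error small for 4 of the 5 genes. Library pairs within a group differed by more than sampling noise (chi-square over its degrees of freedom 12.0 to 41.9), so each counted as 1 replicate. CPM values are counts scaled to TMM library size, and standard errors come from the F statistic. Ratios within a library used log2(CPM + 1) and an exact two-sided permutation test.

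The named genes were the 5 ammonia genes, called genes and the highest and lowest gene of each pathway list, Pck1, Slc12a1, Slc12a2, Slc9a3, Slc4a4, Hes1, Xist and Ddx3y, and the 3 nearest profiles of 2 genes; other genes that the rule names are not reported here. Pck2, Slc26a7 and the markers named singly were chosen after their values were seen. The members and lists were chosen with earlier results of these data known. Rhcg was set against intercalated and principal cell markers after its values were seen. Xist and the Y-linked Ddx3y were opposite: Ddx3y had 661 to 1249 counts in low-Xist libraries and at most 1 in the others. Alternatives were other scalings, filters, tests (DESeq2 1.42.0, limma-voom 3.58.1), Xist as covariate, a pseudocount of 0.25 and leaving out each library. Tested on simulated data for this comparison (15401 genes, 97 changed at each fold size), the edgeR fit called 64.9% of 2-fold and 93.8% of 4-fold changes, with 6.10% false among all calls. Figures used matplotlib 3.10.9.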

Additional observations from a re-analysis of the deposited data

Results flagged for a closer look

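One value stood apart from its group. Gcsh, the carrier protein of glycine cleavage, was at 147 CPM in control 1 and at 121.05, 121.13 and 120.97 CPM in the other controls. The gap to the nearest library was 0.994 of the range of the 4 controls, above Dixon's limit of 0.829. The 28 groups examined gave this 1 flag, and chance flags about 1 in 20 such groups.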

How the results depend on the processing

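The 5 ammonia genes were refitted under 14 alternatives each, and none was called in any of them. The log2 fold change ranged from -0.65 to -0.29 for Rhbg, from -0.29 to -0.05 for Rhcg, from 0.11 to 0.30 for Glul and from 0.13 to 0.41 for Slc38a3. Leaving out single libraries gave -0.088 (without Hes1 cKO 2) to 0.15 for Glud1, so its sign turned. Signs also turned for values near 0 when single libraries were left out: Slc4a2 -0.045 to 0.11 and Cers2 -0.040 to 0.037; with Xist as covariate Cers2 was at -0.014. The ratio of Rhcg to Rhbg differed by 0.03 to 0.32 and that of Glul to Glud1 by 0.07 to 0.28. The count of called genes in the whole table was 53. It was 102 with no filter on low counts (78 higher, 24 lower), 127 by DESeq2 (95 higher, 32 lower) and 25 to 47 with a library left out, 25 without Hes1 cKO 2 and 27 without Hes1 cKO 1. Of the other pathway genes, 2 were called, and 1 to 2 with a library left out; Car12 was called in every alternative. The cause of these shifts was not tested. No paired analysis was possible because the codes and numbers in the column names run on across the groups, so that none is shared. The labels also state no pairing of these kidneys. Rhbg rested on 42 to 98 reads a library, and its spread between libraries was 30.8% of the mean in control and 19.5% in Hes1 cKO. The 95% intervals of the 5 genes leave room for changes of the sizes given with them.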
